A study of Homo sapiens with 6 samples.

Results

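The insulin-like growth factor (IGF) system was followed in the human colorectal cancer cell line SW480 and in M5, a subpopulation obtained from it. Its 9 listed members are the ligand IGF2, the receptors IGF1R, IGF2R and INSR, and the binding proteins IGFBP2, IGFBP3, IGFBP4, IGFBP6 and IGFBP7. Members were chosen by name: a probe set was used where its only gene symbol in the platform annotation was one of these. This gave 21 probe sets of 8 genes, out of 54675 probe sets on the array. IGF2 had 0 such probe sets, since the 3 probe sets that carry its symbol also carry INS-IGF2, so no value is given for it.

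SW480 is the parental, unselected population, and M5 has a raised ability to metastasise to liver, for which it was selected by passage of SW480 cells in an animal. Both were grown in RPMI medium with fetal bovine serum and antibiotics, with no other treatment named, and each was measured on 3 arrays described as biological replicates. How many animals or isolates M5 stands for is not given in the sources used here. Total RNA was hybridised to Affymetrix arrays that report 1 intensity per probe set, and whether the replicates came from separate cultures is likewise not given, so p-values measure only the spread between these arrays.

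IGF1 and IGF2 are secreted growth factors that act through IGF1R, a receptor tyrosine kinase, and IGF2 also acts through INSR, the insulin receptor. IGF2R has no kinase: it carries mannose 6-phosphate-tagged enzymes to lysosomes and removes IGF2 from the cell surface. The IGF-binding proteins are secreted, hold the ligands outside the cell and can lower or prolong their action. IGFBP6 binds IGF2 in preference to IGF1, and in intestinal tumours loss of IGF2 imprinting is a well-known feature.

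The RefSeq table of assembly GRCh38.p14 places the members apart from each other: IGF1R at chr15:98648539-98964530, IGF2R at chr6:159969082-160111504, INSR at chr19:7112265-7294414, IGFBP2 at chr2:216632828-216664436, IGFBP3 at chr7:45912245-45921272, IGFBP4 at chr17:40443450-40457725, IGFBP6 at chr12:53097667-53102340, IGFBP7 at chr4:57030773-57110385 and IGF2 at chr11:2129117-2149566. RefSeq promoter sequences were matched for 7 of the 9 members. The 250 bases before the annotated start are printed for IGFBP3 and IGFBP6, the binding proteins whose result depended on which arrays were kept, and for IGF2R, the gene with a kept probe set whose groups did not overlap. Capitals mark matches on either strand to GGGCGG (the GC box) and TATANA (TATA-like) in IGFBP3 and IGFBP6, and to CACGTG (the E-box) in IGF2R. Each runs 5′ to 3′ in the direction of the gene.
IGFBP3, chr7:45921273-45921522, minus strand: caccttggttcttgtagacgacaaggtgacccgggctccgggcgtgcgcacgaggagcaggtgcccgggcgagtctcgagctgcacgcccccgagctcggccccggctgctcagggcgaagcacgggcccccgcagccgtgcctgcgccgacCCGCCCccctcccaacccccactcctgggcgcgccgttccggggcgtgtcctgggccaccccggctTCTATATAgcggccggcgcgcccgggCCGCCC
IGFBP6, chr12:53097417-53097666, plus strand: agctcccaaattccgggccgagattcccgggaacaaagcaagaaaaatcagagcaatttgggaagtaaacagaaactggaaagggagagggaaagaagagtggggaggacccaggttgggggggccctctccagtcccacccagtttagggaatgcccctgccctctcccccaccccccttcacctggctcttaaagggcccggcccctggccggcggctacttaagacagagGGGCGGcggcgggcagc
IGF2R, chr6:159968832-159969081, plus strand: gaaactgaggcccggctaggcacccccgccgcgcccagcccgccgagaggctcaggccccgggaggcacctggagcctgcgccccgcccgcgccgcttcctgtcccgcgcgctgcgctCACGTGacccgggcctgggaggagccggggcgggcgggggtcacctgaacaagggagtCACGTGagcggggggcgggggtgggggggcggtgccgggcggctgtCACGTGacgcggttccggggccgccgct

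The IGFBP3 window held 2 overlapping TATA-like matches, beginning 32 and 30 bases before the start, and 2 GC boxes. The match beginning 30 bases before the start reads the same on both strands. The IGFBP6 window held 0 TATA-like matches and 1 GC box. Over 35116 RefSeq promoter windows of the same length, 17.7% held a TATA-like match and 42.6% a GC box. The IGF2R window held 3 E-boxes, beginning 132, 74 and 28 bases before the start, where 6.34% of windows held any and 0.0797% held 3 or more. It also held 6 GC boxes, not capitalised above, and INSR held 4, some of them overlapping, where 13.9% of windows held 3 or more. GC content was 76% for IGFBP3, 61.2% for IGFBP6, 79.2% for IGF2R, 78.4% for INSR and 81.2% for IGF1R, against a median of 58% over all windows. A match describes these letters and not binding of a factor.

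The arrays were not equally bright. Their 2% trimmed mean signals differed by up to 4.12 times, with the lowest values on SW480 replicate 1 and M5 replicate 1 (the dimmer pair). Over 3277 bright probe sets the correlation of M5 replicate 2 with M5 replicate 3 was 0.995, where other pairs of arrays gave 0.897 to 0.958. For their closeness on bright probe sets, M5 replicates 2 and 3 enter means and SDs as a single sample (n = 2 for M5), while the tests keep all 6 arrays. On the same bright probe sets, SW480 replicate 1 was closer to M5 replicate 1 (0.9545) than to SW480 replicates 2 and 3 (0.9096 and 0.9095). Over all probe sets above the filter on low signals these correlations were 0.8953, 0.89 and 0.8986. By that measure M5 replicate 2 with M5 replicate 3 gave 0.9429, no closer than SW480 replicate 2 with SW480 replicate 3 (0.9436). Control probe sets for 18S ribosomal RNA were bright on another set of arrays, SW480 replicates 1 and 2 and M5 replicate 1. Of 12 markers of colorectal epithelium, 9 were above the filter on low signals, and the summed signal of all 12 was 9135 to 13080 on SW480 arrays and 11360 to 12320 on M5 arrays. CDX1, CDX2 and GPA33, which mark intestinal cells, were under the filter, and CDH1 and EPCAM were above it. Signals below are quantile-normalised intensities, and fold changes are on the scale log2(signal + 1.7).

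Over all 6 arrays, none of the members tested passed. Probe sets in the lowest 40% by mean signal were not tested, which removed 6 of the 21 member probe sets and all of IGFBP4, and left 15 probe sets of 7 genes. In limma, 0 of these 15 were higher and 0 were lower in M5 at an adjusted p under 0.05, where 0.0397% of all 32768 probe sets were higher and 0.0336% lower. The adjusted p of member probe sets lay between 0.288 and 0.988. At an unadjusted p under 0.05 limma gave 2 of the 15, IGFBP6 and 1 IGF2R probe set, a share of 13.3% against 10.3% of all probe sets. With 1 probe set a gene, the median log2 fold change was 0.27 over the 7 genes and -0.01 over 14243 genes, and 4 of the 7 were positive.

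**Figure D1:**
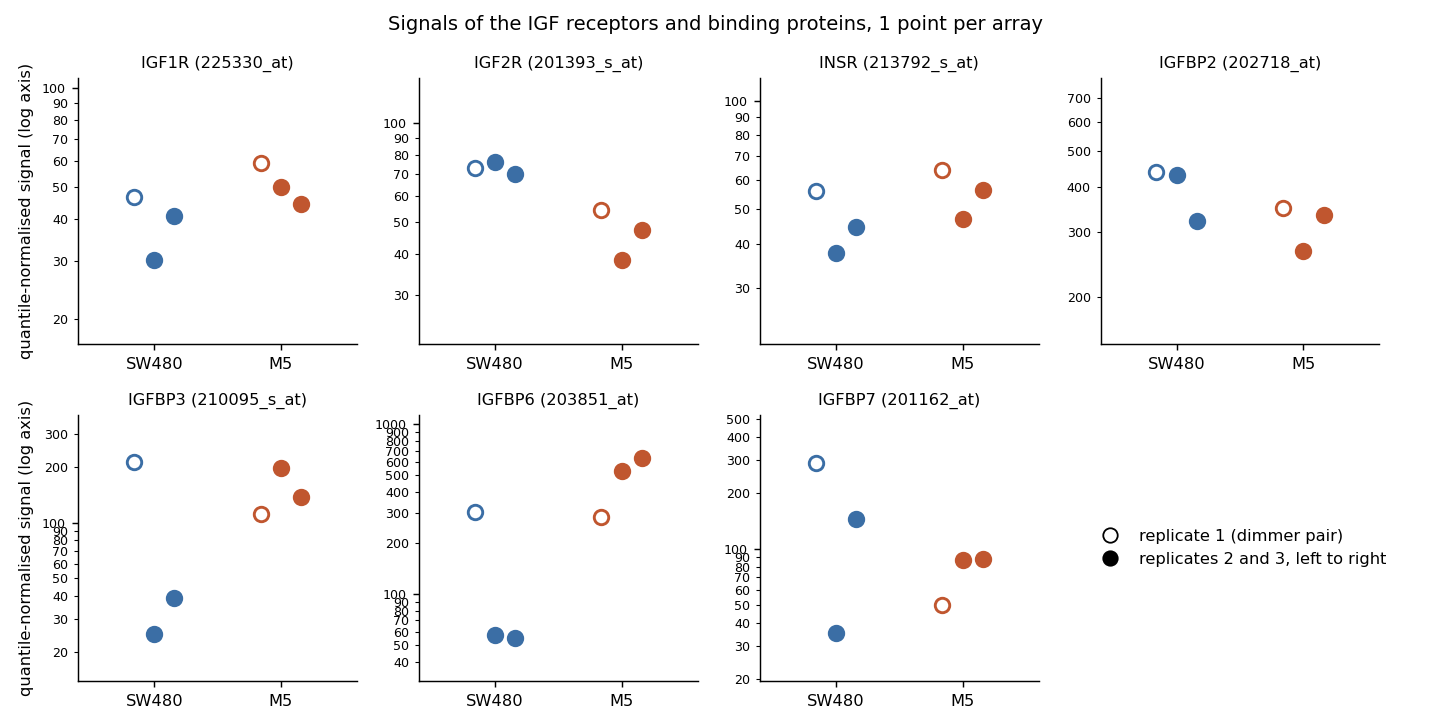
Quantile-normalised signal (log axis) of the brightest kept probe set of each of the 7 genes, 1 point per array, SW480 in blue and M5 in orange, open points for the dimmer pair. IGFBP6 and IGFBP3 are low only on SW480 replicates 2 and 3, and IGF2R is the gene whose groups do not overlap.

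IGF1R, the receptor for IGF1 and IGF2, gave 46.9, 30.2 and 41.1 on SW480 replicates 1, 2 and 3 and 59.3, 50.03 and 44.7 on M5 replicates 1, 2 and 3 for its brightest probe set, 225330_at. The lowest M5 array lay between the SW480 arrays, so the groups overlapped. The log2 fold change was 0.38 (SE 0.31, 95% interval -0.31 to 1.07, adjusted p = 0.721 by limma). The difference was 0.33 in the dimmer pair and 0.42 on the 4 brighter arrays. The second kept probe set, 203627_at, pointed the other way, at -0.89 (SE 0.59 and adjusted p = 0.642 by limma). Its signals were 12.6, 11 and 16.2 on SW480 and 12.3, 7.03 and 2.53 on M5 arrays. The 3 IGF1R probe sets under the filter lay low on most arrays. One of them, 208441_at, was between 0.45 and 2.55 on SW480 and between 7.43 and 9.77 on M5, and another, 243358_at, was between 1.12 and 2.82 on SW480 and between 4.60 and 20.03 on M5. With no detection calls these values set no firm fold. The IGF1R probe sets thus gave no common direction.

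INSR, which binds insulin and in 1 of its splice forms IGF2, had 5 probe sets, all kept. The brightest, 213792_s_at, gave 55.9, 37.8 and 44.6 on SW480 and 64.1, 46.8 and 56.3 on M5 arrays. The groups overlapped, and the log2 fold change was 0.27 (SE 0.30, 95% interval -0.39 to 0.94, adjusted p = 0.805 by limma). Of the 5 probe sets, 4 had a positive log2 fold change and 1 a negative one, in a range from -0.13 to 0.61, and none passed. The largest was that of 226212_s_at, with 23.3, 14.6 and 12.7 on SW480 and 30.1, 15.97 and 35.1 on M5 arrays, which also overlapped.

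For IGF2R the SW480 arrays lay close together. Its brightest probe set, 201393_s_at, gave 72.7, 75.9 and 69.7 on SW480 and 54.1, 38.1 and 47.3 on M5 arrays. Every M5 array lay under every SW480 array, as for 7.89% of all kept probe sets, with another 7.23% the other way round. In SW480 the mean signal was 72.8 ± 3.10 (SD, n = 3), and in M5 it was 48.4 ± 8.10 (SD, n = 2). The log2 fold change was -0.64 (SE 0.28, 95% interval -1.26 to -0.02), with an unadjusted p of 0.0428 and adjusted p = 0.471 by limma, so IGF2R was not called. That interval counts M5 replicates 2 and 3 as separate samples. With them averaged, the log2 fold change was -0.58 (SE 0.34 and adjusted p = 0.892 by limma). The second probe set, 201392_s_at, gave 51.8, 36.6 and 54.9 on SW480 and 42.2, 24.9 and 26.0 on M5 arrays, a log2 fold change of -0.61 (SE 0.35 and adjusted p = 0.581 by limma) with overlap. The third, 1569052_at, lay between 5.48 and 11.6 on all arrays and had a log2 fold change of 0.03. The difference for 201393_s_at was -0.41 in the dimmer pair, -0.45 among arrays with a high 18S control and -0.69 among those with a low one. M6PR, the smaller mannose 6-phosphate receptor, had a log2 fold change of -0.54 (SE 0.34 and adjusted p = 0.615 by limma).

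IGFBP2, a binding protein often abundant in carcinoma cells, had 1 probe set. It gave 439, 430 and 322 on SW480 and 349, 267 and 335 on M5 arrays. SW480 replicate 3 lay among the M5 arrays. In SW480 the mean was 397 ± 65.0 (SD, n = 3), and in M5 it was 325 ± 34.1 (SD, n = 2). The log2 fold change was -0.32 (SE 0.21, 95% interval -0.78 to 0.14, adjusted p = 0.637 by limma). The difference was -0.33 in the dimmer pair and -0.32 on the 4 brighter arrays.

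IGFBP6 had the largest difference among the members and also one of the widest spreads. Signals were 306, 57.3 and 55.4 on SW480 and 283, 533 and 629 on M5 arrays. SW480 replicate 1 lay above M5 replicate 1, so the groups overlapped, while SW480 replicates 2 and 3 lay far under all M5 arrays. In SW480 the mean signal was 139 ± 144 (SD, n = 3), and in M5 it was 432 ± 211 (SD, n = 2). The log2 fold change was 2.18 (SE 0.56, 95% interval 0.95 to 3.41), with an unadjusted p of 0.00244 and adjusted p = 0.288 by limma. In the deposited intensities, before scaling, IGFBP6 was 109.6, 61.6 and 91.1 on SW480 and 136.4, 678.9 and 827.6 on M5 arrays. Brightness differs between the arrays there, with SW480 replicate 1 the dimmest, so overlap of the groups is not read from these values. The fit without scaling gave a log2 fold change of 2.30 (SE 0.89 and adjusted p = 1 by limma).

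IGFBP3, the main carrier of IGFs in serum and a gene that p53 and TGF-beta are known to induce, had 2 probe sets that followed each other across the arrays. The brighter, 210095_s_at, gave 211, 25.1 and 39.4 on SW480 and 111, 196 and 137 on M5 arrays. SW480 replicate 1 was the highest of all 6 arrays and SW480 replicates 2 and 3 were the lowest. The log2 fold change was 1.24 (SE 0.61, 95% interval -0.10 to 2.58, adjusted p = 0.526 by limma). The other, 212143_s_at, gave 53.6, 8.05 and 16.1 on SW480 and 30.1, 73.3 and 45.5 on M5 arrays, and a log2 fold change of 1.18 (SE 0.58 and adjusted p = 0.527 by limma). For this probe set SW480 replicate 1 lay among the M5 arrays.

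**Figure D2:**
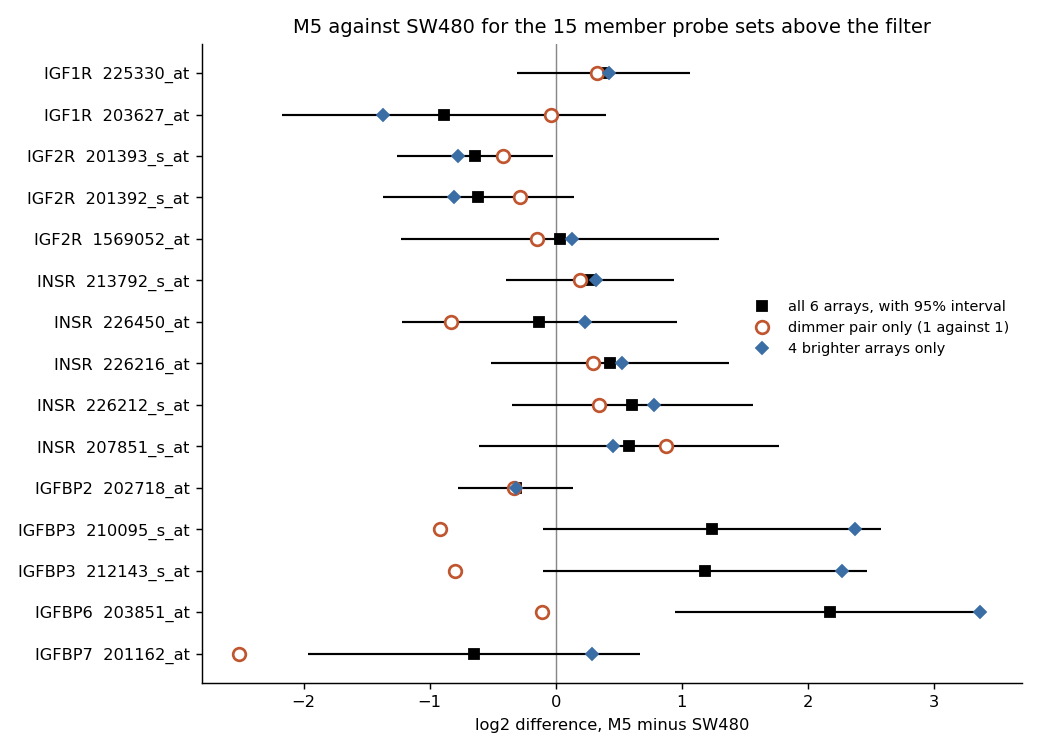
Log2 difference, M5 minus SW480, for the 15 member probe sets above the filter: squares and bars give the fit over all 6 arrays with its 95% interval, open circles the dimmer pair, diamonds the fit on the 4 brighter arrays. For IGFBP3 and IGFBP6 the circles lie below 0 and the diamonds above 2. All 3 marks lie below 0 for IGF2R 201393_s_at and 201392_s_at, IGF1R 203627_at and IGFBP2.

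For IGFBP6 and IGFBP3 the result depended on the dimmer pair. In it, the difference was -0.11 for IGFBP6 and -0.92 and -0.80 for the IGFBP3 probe sets. On the 4 brighter arrays, a choice first made after the data had been seen, limma gave log2 fold changes of 3.37 for IGFBP6 (SE 0.18, adjusted p = 0.000103) and of 2.37 (SE 0.30, adjusted p = 0.00336) and 2.27 (SE 0.42, adjusted p = 0.0151) for IGFBP3. These are 10.3-fold, 5.18-fold and 4.83-fold. They were the 3 of 17 member probe sets tested there that were called higher, with 0 called lower, where 3.64% of all probe sets were called higher and 4.21% lower. With M5 replicates 2 and 3 also averaged, the only measured spread was that of SW480 replicates 2 and 3, and the single M5 sample was taken to have the same. Limma adjusted p was then 0.00492 for IGFBP6 and 0.0357 and 0.0783 for the IGFBP3 probe sets, so 2 of 16 member probe sets were called higher and 0 lower, where 0.351% of all probe sets were called higher and 0.565% lower.

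The difference between the pair and the other arrays was itself tested with an interaction term, also chosen after the data were seen. For IGFBP6, the M5 minus SW480 difference of the dimmer pair less that of the brighter arrays was -3.44 on the log2 scale (SE 0.30 and adjusted p = 0.00965 by limma). For the IGFBP3 probe sets it was -3.24 (SE 0.48 and adjusted p = 0.0345 by limma) and -2.97 (SE 0.68 and adjusted p = 0.0815 by limma). Of all probe sets, 1.15% passed this test, and 2 of the 15 member probe sets did. The spread in it comes from SW480 replicates 2 and 3 and M5 replicates 2 and 3, so these p-values are too small if the M5 pair is 1 sample. The calls turned on SW480 replicate 1: without it, the log2 fold change was 3.001 for IGFBP6 (limma adjusted p = 0.0062) and 2.16 for IGFBP3 210095_s_at (limma adjusted p = 0.0295). Without M5 replicate 1, IGFBP6 had 2.53 (limma adjusted p = 0.105) and IGFBP3 had 1.44 (limma adjusted p = 0.386). Without SW480 replicate 2, IGFBP6 had 1.81 and IGFBP3 0.64, and without SW480 replicate 3 they had 1.77 and 0.92, with limma adjusted p of at least 0.535. Without SW480 replicate 1, 2 of 17 member probe sets were called higher and 0 lower, against 0.363% and 0.168% of all probe sets. With all arrays kept but M5 replicates 2 and 3 averaged, 0 of 16 were called, against 0.00305% of all probe sets higher and 0.0122% lower, and the adjusted p of IGFBP6 was 0.852 in limma. The dimmest SW480 array had the highest IGFBP6 and IGFBP3 signals of its group, and the dimmest M5 array the lowest of its own. The part of brightness in the result was not tested. Split by the 18S control, IGFBP6 differed by 1.08 among arrays with a high signal of it and by 3.35 among the others, and IGFBP3 210095_s_at by 0.57 and 2.01.

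Other cell types secrete IGF-binding proteins, so their markers are given beside these results. The 10 fibroblast markers summed to 276 to 528 on SW480 and 251 to 291 on M5 arrays, the highest sum being that of SW480 replicate 1. Within that list the markers differed. COL3A1, ACTA2, COL1A2, DCN, PDGFRA and LUM were highest of the SW480 arrays on SW480 replicate 1 (223, 150, 42.6, 32.1, 20.3 and 9.8). COL1A1, THY1 and PDGFRB were lowest there (42.9, 3.23 and 0.67), and FAP lay between the other SW480 arrays. The 10 hepatocyte markers summed to 109 to 377 on SW480 and 99.6 to 589 on M5 arrays. ALB was at most 17.1, while TTR was 196, 73.1 and 5.68 and FGB 202, 23.8 and 9.33 on M5 arrays, against at most 5.17 and 11 on SW480 (limma adjusted p = 0.307 for TTR and 0.39 for FGB). SERPINA1, CYP3A4 and HP went the other way, with log2 fold changes of -0.47, -0.76 and -0.69, and SERPINA1 was 235 on SW480 replicate 1. Of the 6 hepatocyte markers above the filter, 3 had a positive log2 fold change and 3 a negative one. The 7 endothelial markers summed to 28.2 to 51.5 on SW480 and 36.4 to 71.5 on M5 arrays. The leukocyte markers with a probe set, 6 of 7, summed to 25.4 to 119 on SW480 and 97.1 to 211 on M5 arrays. LYZ, the lysozyme gene, gave 73.5, 1.22 and 23.5 on SW480 and 63.9, 147 and 161 on M5 arrays, while PTPRC, which all leukocytes carry, was at most 11.3. LYZ was thus low on SW480 replicates 2 and 3, as IGFBP6 and IGFBP3 were. The epithelial marker KRT19 was also lowest there, with 2956, 1433 and 955.5 on SW480 and 2660, 2647 and 2751 on M5 arrays. Of the other leukocyte markers, CD79A was lowest there by little (27.97, 10.73 and 15.42 against 18.95, 17.02 and 28.6). CD3E was not (13.48, 5.05 and 0.78 against 2.17, 13.48 and 13.9), and PTPRC, CD14 and TYROBP were under the filter. Over 6 arrays limma called 0 markers of any of these lists. On the 4 brighter arrays it called LYZ higher (log2 fold change 4.35, adjusted p = 0.0182) and COL3A1 lower (-1.27, adjusted p = 0.0372), and of the epithelial markers KRT19 higher (1.19, adjusted p = 0.007). Tested there were 9 epithelial, 8 fibroblast, 6 hepatocyte, 3 leukocyte and 2 endothelial markers. In that fit 3.64% of all probe sets were called higher and 4.21% lower. With M5 replicates 2 and 3 also averaged, 0 of these markers were called. Their part in the IGFBP6 and IGFBP3 values was not tested.

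IGFBP7, which binds IGFs weakly and is also deposited in vessel walls, varied widely within SW480. Its brightest probe set, 201162_at, gave 290, 35.0 and 144 on SW480 and 49.5, 86.6 and 87.9 on M5 arrays. The M5 arrays all lay within the SW480 range. The log2 fold change was -0.65 (SE 0.60, 95% interval -1.97 to 0.67, adjusted p = 0.756 by limma), and it was -2.51 in the dimmer pair and 0.29 on the 4 brighter arrays. The probe sets under the filter did not follow it: 201163_s_at gave 1.6, 9.45 and 53.4 on SW480 and 7.75, 0.18 and 0.87 on M5 arrays, and 213910_at was at most 5.37. In the fit on the 4 brighter arrays 201163_s_at was above the filter, with a log2 fold change of -3.72 (SE 0.98 and adjusted p = 0.0534 by limma). On SW480 replicate 1, where 201162_at was highest, 201163_s_at was near the bottom of the scale. IGFBP4, an inhibitory binding protein, had 1 probe set, with 3.43, 1.22 and 0.70 on SW480 and 0.58, 1.22 and 9.33 on M5 arrays, and was not tested.

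**Figure D3:**
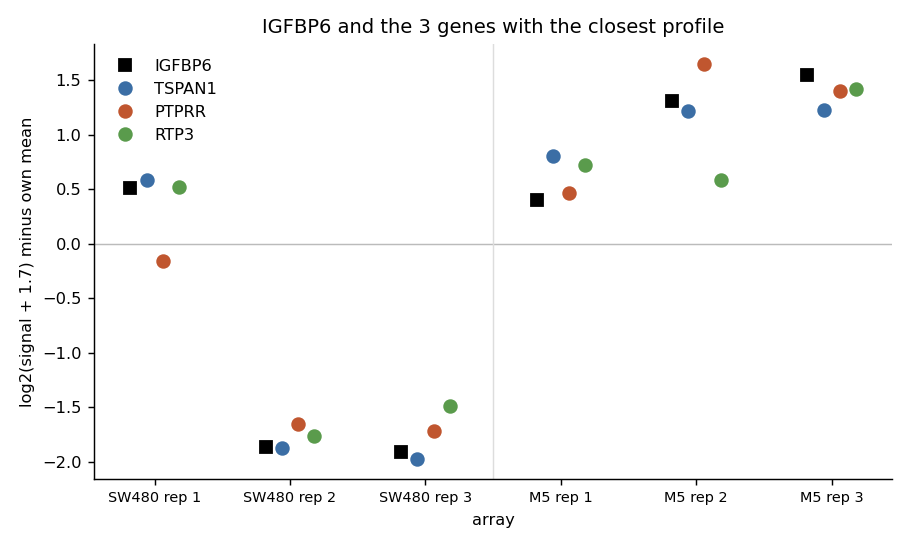
Log2(signal + 1.7) minus each gene's own mean over the 6 arrays, for IGFBP6 (black squares) and the 3 genes with the closest profile (circles). SW480 replicates 2 and 3 are the lowest arrays for each of the 4 genes, and SW480 replicate 1 lies nearer the M5 arrays.

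Among 14242 other genes, the profiles closest to that of IGFBP6 over the 6 arrays were those of TSPAN1, a tetraspanin, PTPRR, a tyrosine phosphatase, and RTP3. Likeness was the root mean square difference of log2 profiles centred on their own means, which was 0.22, 0.34 and 0.37. TSPAN1 gave 646, 116 and 108 on SW480 and 752, 1002 and 1011 on M5 arrays. PTPRR gave 12.8, 3.45 and 3.22 on SW480 and 20.6, 49.2 and 41.2 on M5 arrays. RTP3 gave 16.5, 2.02 and 2.82 on SW480 and 19.1, 17.3 and 32.2 on M5 arrays. In each, SW480 replicate 1 was the highest of the SW480 arrays, as for IGFBP6, and with 6 arrays and so many genes some profiles must be close.

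The remaining pathway was read from a list of 52 other genes, of which 47 had a probe set with that symbol alone and 41 were kept. In limma over 6 arrays, 0 of the 41 were called higher and 0 lower, the smallest adjusted p being 0.305, where 0.0397% of all probe sets were called higher and 0.0336% lower. At an unadjusted p under 0.05 limma gave 8, or 19.5%, against 11.7% of all genes. The median log2 fold change was -0.10, with 15 positive and 26 negative. Among these genes the largest positive values were those of IGFALS, the serum partner of IGF and IGFBP3 complexes, at 1.68 (SE 0.66), the ligand gene IGF1 at 1.48 (SE 0.55) and IRS2, an adaptor of both kinase receptors, at 1.35 (SE 0.39). IGF1 signals were 16.1, 8.05 and 16.5 on SW480 and 96.4, 25.7 and 23.5 on M5 arrays, and IGFALS signals 17.3, 2.30 and 3.12 against 34.5, 13.9 and 19.6. IRS2 gave 194, 66.7 and 58.8 on SW480 and 236, 256 and 218 on M5 arrays. For IRS2 and IGF1 every M5 array lay above every SW480 array, as for 7.23% of all kept probe sets. The groups overlapped for IGFALS. Limma adjusted p was 0.438 for IGFALS, 0.413 for IGF1 and 0.316 for IRS2.

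The largest negative values were those of SOS1, which links receptors to RAS, at -1.35 (SE 0.38), the binding protein gene IGFBP5 at -1.09 (SE 0.64) and IGF2BP3, whose protein binds IGF2 mRNA, at -0.98 (SE 0.60), with limma adjusted p of 0.316, 0.599 and 0.614. SOS1 gave 73.5, 125 and 101 on SW480 and 67.5, 27.3 and 27.7 on M5 arrays. Here every M5 array lay under every SW480 array, as for 7.89% of all kept probe sets. IGFBP5 gave 28.2, 16.9 and 12.3 on SW480 and 22.4, 3.22 and 5.13 on M5 arrays, with a difference of -0.31 in the dimmer pair. Without detection calls, low signals such as these and those of IGFALS set no firm fold. IGF2BP3 gave 39.97, 375 and 125 on SW480 and 73.1, 59.4 and 54.8 on M5 arrays, where SW480 replicate 2 alone lay far above the rest. In the PI3K and AKT branch, 6 of 19 kept genes had a positive log2 fold change and 13 a negative one, in a range from -0.75 to 0.77. At an unadjusted p under 0.05 limma gave 4 of the 19: PTPN1 at 0.77 (SE 0.30), EIF4EBP1 at 0.68 (SE 0.28), RHEB at 0.59 (SE 0.16) and PIK3CB at -0.72 (SE 0.25). Their adjusted p lay between 0.305 and 0.454. On the 4 brighter arrays, 3 of 40 list genes were called higher, IRS2, EIF4EBP1 and RHEB, and 4 lower, SOS1, IGF2BP3, STC2 and PIK3CB, where 3.64% of all probe sets were higher and 4.21% lower. When M5 replicates 2 and 3 were first averaged, 1 passed in each direction, against 0.351% and 0.565% of all probe sets. IRS2 differed by 1.92 on the brighter arrays and 0.28 in the dimmer pair, and SOS1 by -2.01 and -0.12, a contrast that was not tested for these genes.

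**Figure D4:**
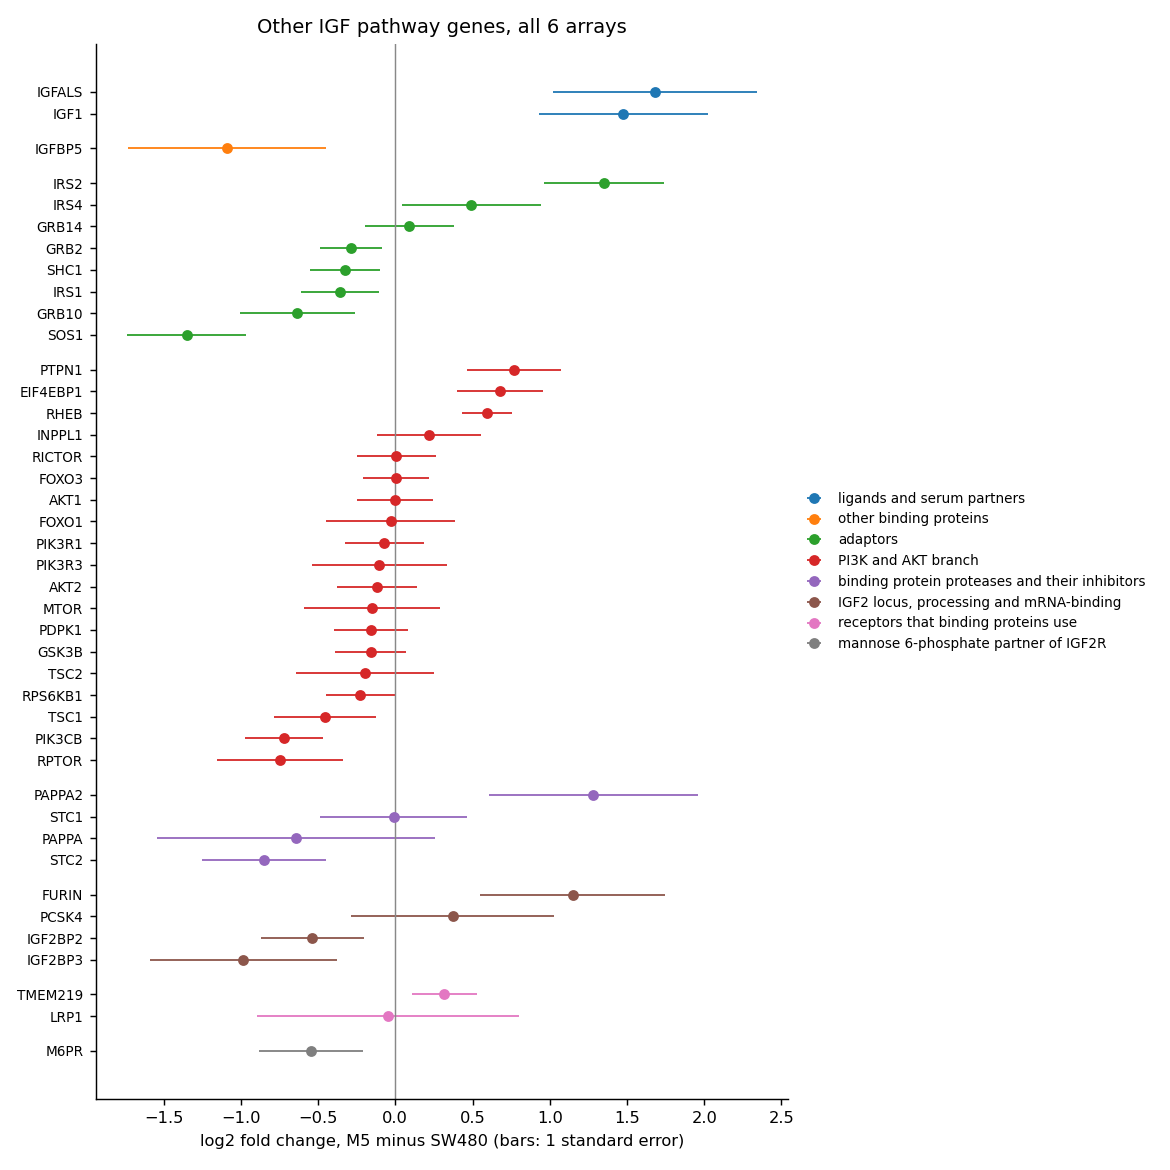
Log2 fold change, M5 minus SW480, over all 6 arrays for the 41 kept genes of the IGF pathway list, grouped and coloured by role, with bars of 1 standard error. IGFALS, IGF1 and IRS2 are farthest to the right and SOS1 and IGFBP5 farthest to the left, and none of the 41 passed the test.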

How the data were processed

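Probe set signals of 3 SW480 and 3 M5 arrays were used. The authors deposited linear intensity values, and per the submitters' processing notes they used GCOS 1.4, with settings and scaling not given in the sources used here. Detection calls were not used here. All 62 control probe sets were left out. The other 54613 were quantile normalised, since array brightness differed, and log2(signal + 1.7) was taken, with a pseudocount at the 20th percentile of the deposited values. After removal of the lowest 40% by mean, the M5 arrays were tested against the SW480 arrays with limma 3.58.1 in R 4.3.3 (lmFit, eBayes, trend over intensity). Tests were two-sided and Benjamini-Hochberg adjusted over all 32768 kept probe sets and a threshold of 0.05. Genes were named from the platform annotation of 2016. Each gene's brightest kept probe set stood for it. All members were named, and the pathway list by its 3 largest values in each direction. Members, lists and most alternatives were chosen with earlier results of these data known. The script was tested on simulated data. Figures were drawn with matplotlib 3.10.9. Alternatives changed the scaling, pseudocount, filter, variance model, blocks and arrays used.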

Additional observations from a re-analysis of the deposited data

How the results depend on the processing

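With all 6 arrays, 13 probe sets were higher and 11 lower in M5, and 0 member probe sets were called. Unscaled arrays gave 6 probe sets lower, no filter gave 20 lower, and limma without trend gave 0 higher and 1 lower, where an unadjusted p under 0.05 in limma with trend gave 1579 higher and 1781 lower. The replicate block gave 18 lower. Replicate numbers gave no clear pairing, with correlations of 0.11, 0.02 and 0.07 between the within-group deviations of arrays numbered 1, 2 and 3. Averaging M5 replicates 2 and 3 gave 1 higher and 4 lower. Without the dimmer pair 1194 were higher and 1378 lower, with 3 member probe sets higher. With the M5 replicates also averaged, these were 115, 185 and 2. IGFBP7 by its brightest probe set (-0.65 on the log2 scale over all arrays) turned to 0.29 in both of these fits, where 201163_s_at had -3.72. With each array left out once there were 1 to 165 probe sets higher, 3 to 212 lower, 0 to 2 member probe sets higher and 0 lower, and IGFBP7 ranged from -1.49 (without SW480 replicate 2) to 0.018 (without SW480 replicate 1). For these changes the cause was not tested. In the fits listed in this paragraph, and under median centring, the other pseudocounts (0.425 and 6.8), the 60% filter and the 18S block, IGF1R, IGF2R, INSR, IGFBP2, IGFBP3 and IGFBP6 kept their direction. Scaling moved the median of all probe sets by at most 0.08. Without detection calls, low signals such as those of IGFBP4 set no firm level.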
